A study of Mus musculus with 10 samples.

Results

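The genes Mov10l1, Syce1, Syt4, Nptxr, Igfn1, Fndc3c1, Capn6, Arnt2 and Dlk2 stood higher in D69A than in WT melanoma tumors and are described here. They are 9 of the 17737 genes in the deposited count table and were picked by name because their counts were higher in all D69A tumors than in the WT tumors, so the difference between the groups is given as a description, without a test. RNA was sequenced from B16-F10 tumors, a mouse melanoma line of the C57BL/6 background, grown under the skin of the right flank of C57BL/6 mice and taken on day 11. The D69A group held 5 tumors (numbers 1 to 5) whose implanted cells overexpressed IL-18 with alanine in place of aspartate at position 69. The WT group held 5 tumors (numbers 2 to 6) whose implanted cells overexpressed unmutated IL-18. No tumor without IL-18 overexpression was analysed here, the labels do not state the promoter of the construct or whether each line was 1 clone or a pool, and a difference between the lines cannot be told apart from the substitution.

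The genes come from separate programs. Mov10l1 and Syce1 belong to the germline: MOV10L1 is an RNA helicase that feeds precursor transcripts into the piRNA pathway, which silences transposons in male germ cells, and SYCE1 is a central element protein of the synaptonemal complex, the protein ladder that joins homologous chromosomes in meiosis. Syt4 and Nptxr are best known from neurons, where synaptotagmin 4 sits on secretory vesicles and the neuronal pentraxin receptor helps to gather AMPA-type glutamate receptors at synapses. Melanocytes arise from the neural crest, the embryonic tissue that also yields peripheral neurons and glia. Igfn1 encodes a protein of immunoglobulin and fibronectin type III domains of the muscle Z-disc, Fndc3c1 a fibronectin type III domain protein, and Capn6 a calpain that lacks the catalytic cysteine and binds microtubules. Arnt2 encodes a bHLH-PAS transcription factor that pairs with partners such as SIM1, and Dlk2 a membrane protein with EGF-like repeats related to DLK1 that acts on Notch signalling.

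Total counts lay between 34400949 and 37578722 in D69A tumors and between 25904345 (tumor 6) and 37556163 in WT tumors. Levels are CPM, counts scaled to a common library size with TMM factors. Il18 averaged 27.3 ± 2.41 CPM in D69A tumors and 29.6 ± 2.56 CPM in WT tumors (SD, n = 5 each) and did not pass the threshold (edgeR adjusted p = 0.266). The threshold throughout was 0.05 for the p of the quasi-likelihood test of edgeR, adjusted by the Benjamini-Hochberg method over 13798 genes and written here as edgeR adjusted p. Counts per gene do not separate endogenous Il18 from the construct. The summed level of 15 leukocyte markers was 302.2 to 598.4 CPM in D69A tumors and 798.8 to 2051 CPM in WT tumors, with tumor 1 the highest of the D69A group and tumor 2 the lowest of the WT group. The summed level of 22 skeletal muscle markers was 22.45 to 710.4 CPM in D69A tumors and 29.1 to 1975 CPM in WT tumors, with D69A tumor 1 (710.4 CPM) and WT tumors 3 (1337 CPM) and 4 (1975 CPM) the highest. The labels do not say whether the tumors of a group came from separate mice, so the spread behind each p may be technical.

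For every one of the 9 genes each D69A tumor lay above each WT tumor, which is what they were picked for. Over all 13798 genes tested, 12.0% separated the groups in this direction, 18.8% were called higher in D69A tumors, 24.7% were called lower, and 0.507% were called higher by at least 2-fold. The shares of 18.8% and 24.7% are the background for every count of called genes in a list below. Fitted log2 fold changes of D69A over WT ran from 0.94 for Nptxr to 4.51 for Mov10l1, with a median of 1.92, against a median of 0.00 over all genes tested. The gap between the lowest D69A tumor and the highest WT tumor was narrowest for Dlk2, at 1.21-fold, and Capn6, at 1.26-fold, and widest for Mov10l1, at 6.75-fold. All 9 passed the low count filter, Mov10l1 and Syce1 through their level in D69A tumors, since fewer than 5 WT tumors reached the level the filter asks for (1 for Mov10l1 and 4 for Syce1).

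**Figure D1:**
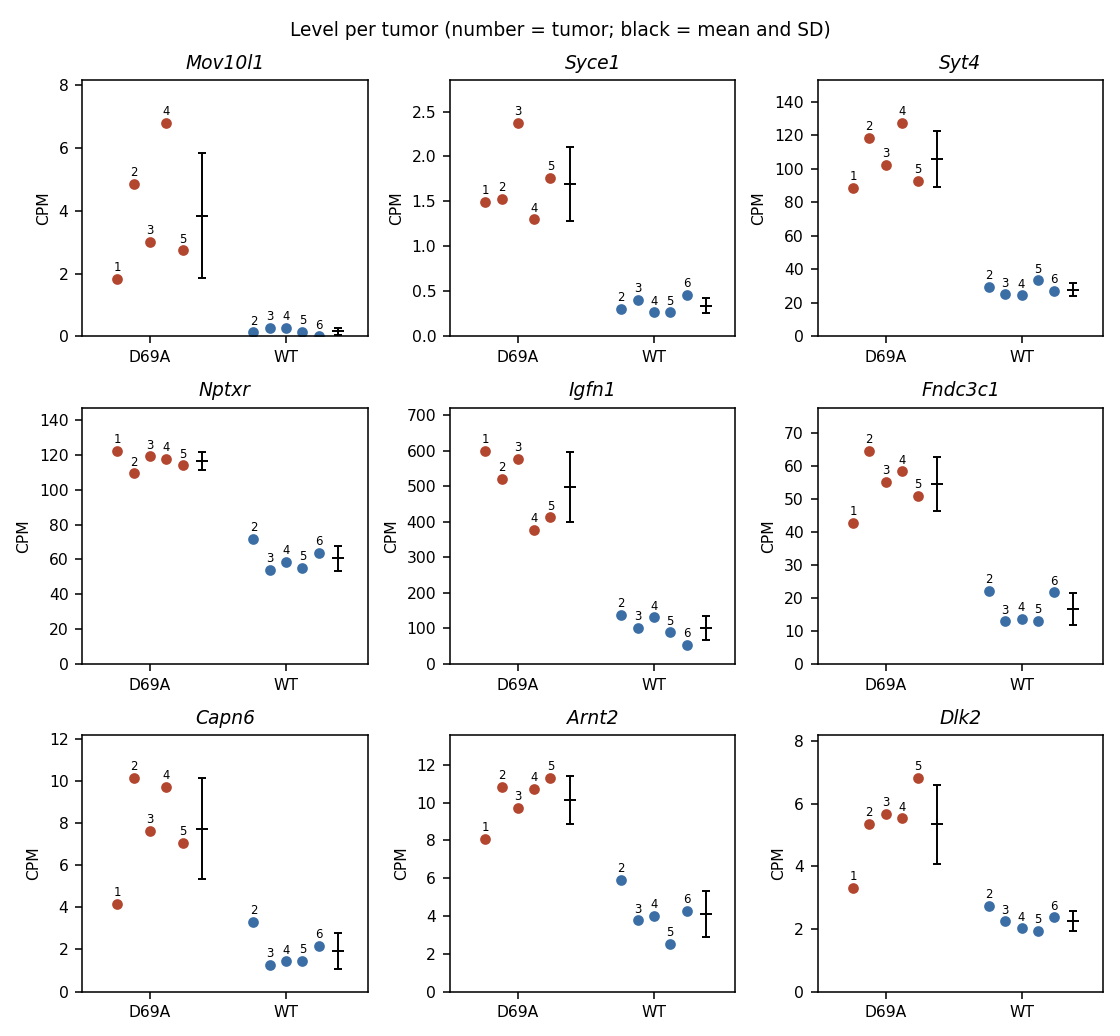
Level of each of the 9 genes in CPM (linear axis from 0), with D69A tumors 1 to 5 on the left and WT tumors 2 to 6 on the right; each point is 1 tumor with its number, and the black mark is the mean with its SD (n = 5). No D69A tumor overlaps the WT tumors for any of the 9 genes, and D69A tumor 1 is the lowest of its group for 6 of them.

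Mov10l1 (chr15:88982909-89055152, + strand, GRCm38) was close to undetected in WT tumors and low but present in D69A tumors. It had 1.84, 4.87, 3.0, 6.80 and 2.74 CPM in D69A tumors 1 to 5, against 0.129, 0.273, 0.266, 0.134 and 0 CPM in WT tumors 2 to 6. In reads this was 675 over the D69A group and 30 over the WT group, with 0 of 25904345 reads in WT tumor 6, which allows a level of up to 0.116 CPM. The lowest D69A tumor, number 1, was thus still several times the highest WT tumor, while D69A tumors differed widely among themselves. The means were 3.85 ± 1.98 CPM in D69A tumors and 0.16 ± 0.11 CPM in WT tumors (SD, n = 5 each), a fitted log2 fold change of 4.51 (SE 0.58). Leaving out each tumor in turn gave log2 fold changes between 4.22 and 4.78, and after removal of the 3 tumors highest in muscle markers (D69A tumor 1 and WT tumors 3 and 4), a choice made after seeing the data, it was 5.47. Per kilobase of exon the mean level was 0.921 CPM in D69A tumors, the lowest of the 9 genes there.

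Syce1 (chr7:140777229-140787852, - strand) was the second germline gene. It had 1.497, 1.53, 2.37, 1.30 and 1.76 CPM in D69A tumors 1 to 5, against 0.31, 0.41, 0.266, 0.268 and 0.459 CPM in WT tumors 2 to 6. The groups did not overlap, D69A tumor 3 was the highest, and the rest of that group lay close together. Its reads numbered 44 to 79 per D69A tumor and 10 to 15 per WT tumor. The means of 1.69 ± 0.414 CPM in D69A tumors and 0.342 ± 0.0876 CPM in WT tumors (SD, n = 5 each) gave a fitted log2 fold change of 2.31 (SE 0.27). The order of the D69A tumors was unlike that of Mov10l1: tumor 4 was the highest for Mov10l1 and the lowest for Syce1.

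The sequences around the start sites of Mov10l1 and Syce1 are shown beside those of Igfn1 and Arnt2. Mean WT levels were 0.16 CPM for Mov10l1 and 0.342 CPM for Syce1, against 102.5 CPM for Igfn1 and 4.09 CPM for Arnt2. Of the 4 genes, Igfn1 had the lowest and Arnt2 the highest CG content. CG is the dinucleotide that carries DNA methylation in mammals, and methylation at CG-containing promoters keeps many germline genes silent in somatic cells. Methylation was not measured in these tumors. Each window holds 250 bases before and 50 after the RefSeq start (build GRCm38.p6, read 5′ to 3′ on the gene's strand), with every CG in capitals.
Mov10l1, chr15:88982744-88983043, + strand: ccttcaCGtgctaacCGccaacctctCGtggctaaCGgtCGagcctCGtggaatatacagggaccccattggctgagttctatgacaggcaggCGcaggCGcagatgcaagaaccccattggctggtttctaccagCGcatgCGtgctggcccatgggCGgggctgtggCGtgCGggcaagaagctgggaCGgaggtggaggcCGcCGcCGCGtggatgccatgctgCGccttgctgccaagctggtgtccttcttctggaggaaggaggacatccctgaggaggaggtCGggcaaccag
Syce1, chr7:140787805-140788104, - strand: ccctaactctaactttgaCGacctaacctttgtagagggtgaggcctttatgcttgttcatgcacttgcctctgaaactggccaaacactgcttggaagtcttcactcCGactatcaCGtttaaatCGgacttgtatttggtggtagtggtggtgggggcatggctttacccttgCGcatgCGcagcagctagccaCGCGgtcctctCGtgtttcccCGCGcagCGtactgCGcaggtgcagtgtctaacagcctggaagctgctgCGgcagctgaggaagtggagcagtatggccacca
Igfn1, chr1:136006293-136006592, - strand: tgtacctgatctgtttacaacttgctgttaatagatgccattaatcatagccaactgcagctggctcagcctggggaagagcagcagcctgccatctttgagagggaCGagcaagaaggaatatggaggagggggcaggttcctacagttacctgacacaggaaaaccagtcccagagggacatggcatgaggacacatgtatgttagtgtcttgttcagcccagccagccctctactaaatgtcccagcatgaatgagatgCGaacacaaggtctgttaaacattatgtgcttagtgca
Arnt2, chr7:84409989-84410288, - strand: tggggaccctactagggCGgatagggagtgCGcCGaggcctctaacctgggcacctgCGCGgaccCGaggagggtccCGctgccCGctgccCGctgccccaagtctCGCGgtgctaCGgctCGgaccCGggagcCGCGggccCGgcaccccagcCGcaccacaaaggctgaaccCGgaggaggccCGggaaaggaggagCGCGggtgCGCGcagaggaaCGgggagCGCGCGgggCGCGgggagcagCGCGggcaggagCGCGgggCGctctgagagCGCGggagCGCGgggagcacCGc

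The windows held 20 CG for Mov10l1, 14 for Syce1, 2 for Igfn1 and 40 for Arnt2. Over 32851 RefSeq windows of the same length the median was 7 CG and the quartiles were 3 and 20, so Arnt2 lay above and Igfn1 below the middle of that range. RefSeq windows were used for 7 of the 9 genes, and besides those 4 Fndc3c1 held 17 CG, Capn6 held 5, and the 2 windows of Dlk2 held 14 and 41. The E-box CACGTG, searched on both strands, was found in Mov10l1 alone among the 7 genes and in 7.15% of all windows. The E-box variant CATGTG, searched on both strands, was found in Igfn1 alone, and in 14.2% of all windows. TATAAA was found in 0 of the 7 genes and in 13.6% of all windows. None of these motifs was shared by all 7 genes, and the 9 genes lie on 6 chromosomes, with Fndc3c1 and Capn6 on the X chromosome.

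Other germline genes did not follow Mov10l1 and Syce1 as a group. Of 21 other genes of the piRNA pathway in the table, 11 had enough counts to test, and 3 rose and 3 fell (background 18.8% higher and 24.7% lower), with a median log2 fold change of -0.41. Piwil2, an Argonaute protein that binds piRNAs, rose to 214.9 ± 7.76 CPM in D69A tumors, against 146.8 ± 28.9 CPM in WT tumors (SD, n = 5 each; fitted log2 change 0.55, SE 0.12, edgeR adjusted p = 0.00417), and Fkbp6, a co-chaperone of the pathway, rose 1.36-fold. Mov10, the paralog of Mov10l1 that is expressed in somatic cells, fell 1.95-fold (log2 fold change -0.96, SE 0.14). The remaining 10 genes were too low to test, none above a mean of 0.0774 CPM in D69A tumors or 0.218 CPM in WT tumors. Without the 3 tumors highest in muscle markers, a choice made after seeing the data, 1 gene was higher and Fkbp6 lost its call (edgeR adjusted p = 0.0995).

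Of 21 other meiosis and synaptonemal complex genes 8 could be tested. Rec114, a factor of meiotic DNA breaks, rose 1.27-fold, while Syce2, another central element gene, and Msh5, a meiotic crossover gene, fell 3.4-fold and 3.3-fold. Syce2 averaged 0.78 ± 0.428 CPM in D69A tumors and 2.67 ± 0.571 CPM in WT tumors (SD, n = 5 each), so its fitted change had the opposite sign to that of Syce1. Sycp1, which encodes the transverse filament that SYCE1 binds, averaged 0 CPM in D69A tumors and 0.0153 CPM in WT tumors, and Sycp3, of the lateral element, 0.0735 CPM in D69A tumors and 0.0533 CPM in WT tumors, and both were too low to test. Of 27 germ cell and testis genes 12 were tested, 0 rose and 4 fell by edgeR, among them the X-linked testis gene Tex13b, at 0.972 ± 0.104 CPM in D69A tumors and 18.9 ± 4.65 CPM in WT tumors, and Xlr3c, which fell 1.76-fold but is close in sequence to Xlr3a and Xlr3b, so its counts are uncertain. Leaving out D69A tumor 1 or WT tumor 6 brought 1 gene of this list into the higher group. Of 9 defining germ cell markers 2 could be tested, and 6 had 0 counts in each D69A tumor, against 2 to 5 in each WT tumor. Ddx4, the germ cell helicase vasa, averaged 0.326 CPM in D69A tumors and 0.698 CPM in WT tumors and was called lower (edgeR adjusted p = 0.033), a call lost without D69A tumor 1, 2, 3 or 4 or WT tumor 3, 4 or 5 (edgeR adjusted p = 0.0577 to 0.0813), which left 0 genes of the marker list called.

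Syt4 (chr18:31437808-31447406, - strand), a vesicle membrane protein gene, reached a mean of 27.2 CPM per kilobase of exon in D69A tumors and 7.17 in WT tumors. It had 88.6, 118.4, 102.5, 127.3 and 92.6 CPM in D69A tumors 1 to 5, against 29.6, 25.1, 24.5, 33.4 and 27.0 CPM in WT tumors 2 to 6. No WT tumor came within 2.65-fold of the lowest D69A tumor. The means were 105.9 ± 16.6 CPM in D69A tumors and 27.9 ± 3.68 CPM in WT tumors (SD, n = 5 each), with a fitted log2 fold change of 1.92 (SE 0.12). As for Mov10l1, D69A tumor 4 was the highest and D69A tumor 1 the lowest. The gene's exons lie opposite the antisense gene Gm26658 over 14.5% of their length, and the use of strand in counting is not given in the sources used here.

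Nptxr (chr15:79786351-79804766, - strand) showed the smallest difference and the tightest groups. It had 122.4, 109.3, 119.1, 117.6 and 113.9 CPM in D69A tumors 1 to 5, against 71.6, 53.9, 58.4, 55.3 and 63.9 CPM in WT tumors 2 to 6. Unlike the other genes apart from Igfn1, it was highest in D69A tumor 1. The coefficient of variation was 4.33% within D69A tumors and 12.0% within WT tumors, against 51.5% and 70.5% for Mov10l1. The means of 116.5 ± 5.05 CPM in D69A tumors and 60.6 ± 7.25 CPM in WT tumors (SD, n = 5 each) gave a log2 fold change of 0.94 (SE 0.08). Npcd shares 17.2% of the exon sequence of Nptxr on the same strand and held 0 reads over the D69A tumors and 2 over the WT tumors.

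Relatives of Syt4 and Nptxr were read against the 18.8% of all tested genes that rose and the 24.7% that fell. Of 25 other tested synaptotagmin and vesicle fusion genes 4 rose and 10 fell, and the median log2 fold change was -0.19. Syt9, a vesicle calcium sensor, rose to 74.9 ± 10.8 CPM in D69A tumors, against 46.0 ± 4.62 CPM in WT tumors (SD, n = 5 each; fitted log2 change 0.70, SE 0.11, edgeR adjusted p = 0.000866), and Rab27a, a GTPase of melanosome and granule transport, rose 1.36-fold. Syt15, a synaptotagmin, fell 4.18-fold, and Unc13d, which primes cytotoxic granules in leukocytes, fell 2.66-fold. Of 12 other tested pentraxin and AMPA receptor genes 0 rose and 5 fell by edgeR, and 1 rose without D69A tumor 1, WT tumor 2 or WT tumor 5. Nptx1, a secreted pentraxin that binds the receptor, averaged 0.267 CPM in D69A tumors and 0.598 CPM in WT tumors (edgeR adjusted p = 0.08), and Gria3, an AMPA receptor subunit gene, fell to 0.257 ± 0.156 CPM in D69A tumors, against 1.41 ± 0.499 CPM in WT tumors.

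Markers of neurons did not rise with Syt4 and Nptxr. Of 29 neuronal markers measured, 16 were tested, 1 rose and 7 fell, with a median log2 fold change of -0.57, and the summed level was 214.4 to 227.3 CPM in D69A tumors and 207.0 to 251.8 CPM in WT tumors. The one that rose was Mapt, which encodes the microtubule protein tau, at 12.1 ± 1.46 CPM in D69A tumors and 6.19 ± 2.11 CPM in WT tumors (SD, n = 5 each; fitted log2 change 0.97, SE 0.22). Rbfox3, the neuronal nuclear antigen NeuN, averaged 0.0323 CPM in D69A tumors and 0.048 CPM in WT tumors, and the vesicle protein gene Syp, which fell, 0.287 CPM in D69A tumors and 0.6715 CPM in WT tumors. Chga, a granule protein gene of neuroendocrine cells, fell 10.15-fold, at 0.0906 CPM in D69A tumors and 0.946 CPM in WT tumors. That D69A mean is near the level of 3 counts (0.0798 to 0.0872 CPM in D69A tumors). All markers that fell averaged below 1 CPM in D69A tumors except L1cam, at 11.3 CPM there and 15.9 CPM in WT tumors. Tubb3, the most abundant marker, was not called, at 76.7 CPM in D69A tumors and 79.1 CPM in WT tumors. L1cam and Tubb3 lie outside the naming rule and were picked with their levels known. The number of neuronal markers that fell was 4 without WT tumor 5 and 3 after removal of the 3 tumors highest in muscle markers, and 2 rose without D69A tumor 1 or 3. Of 21 tested Schwann cell and neural crest markers 3 rose and 9 fell, with Cdh19, a neural crest cadherin, 1.43-fold higher. There 5 rose without WT tumor 2, and 5 fell without D69A tumor 2, D69A tumor 3 or WT tumor 3. The 9 genes are therefore called here by their own names and not as a neuronal or germline group.

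**Figure D2:**
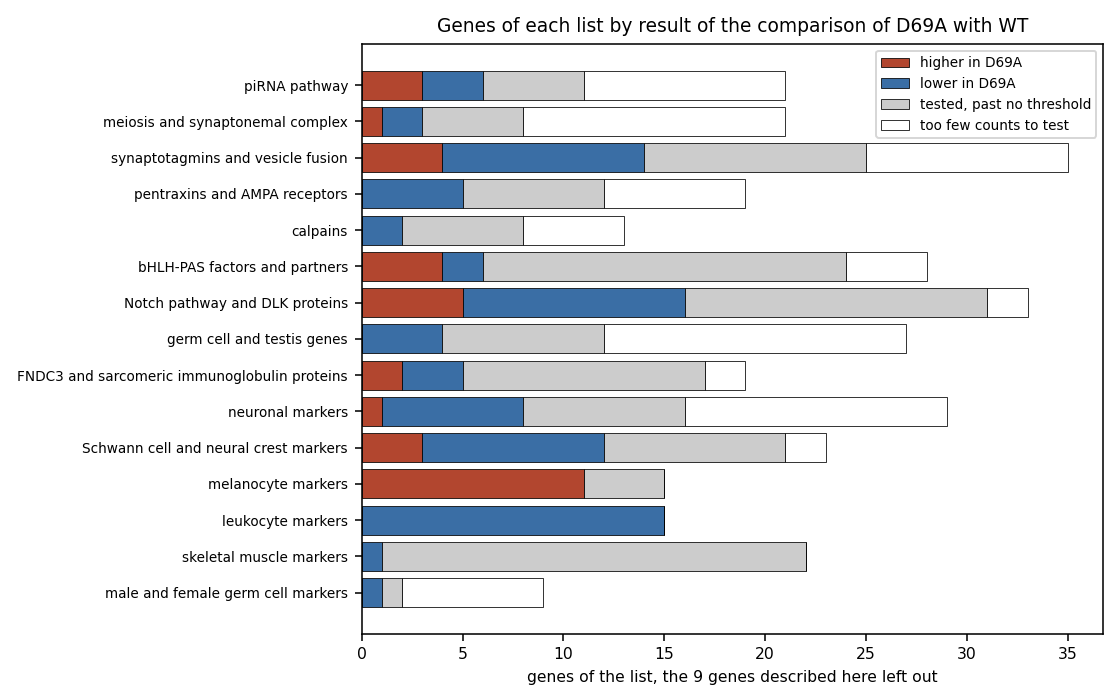
Number of genes of each list (horizontal axis) that were higher, lower or past no threshold in the comparison of D69A with WT tumors, or too low in counts to test, with the 9 genes described here left out. Neuronal markers split into 1 higher and 7 lower and germ cell and testis genes into 0 higher and 4 lower, whereas melanocyte markers had 11 higher and 0 lower.

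Igfn1 (chr1:135953578-136006342, - strand) had the highest mean CPM of the 9 genes in both groups. It had 600.8, 520.2, 576.3, 378.5 and 412.7 CPM in D69A tumors 1 to 5, against 137.1, 101.5, 131.1, 89.05 and 53.8 CPM in WT tumors 2 to 6. D69A tumors 4 and 5 were lower than the other 3, and WT tumor 6 was the lowest of all. The means were 497.7 ± 98.4 CPM in D69A tumors and 102.5 ± 33.8 CPM in WT tumors (SD, n = 5 each), with a log2 fold change of 2.28 (SE 0.24). Per kilobase of exon the level of Igfn1 was 55.3 CPM in D69A tumors, the highest of the 9 genes, and 11.4 CPM in WT tumors, next to Nptxr at 11.7 CPM per kilobase. Igfn1 is known from muscle, and the summed muscle markers were 710.4, 33.9, 24.4, 154 and 22.45 CPM in D69A tumors 1 to 5, against 164.9, 1337, 1975, 75.4 and 29.1 CPM in WT tumors 2 to 6. D69A tumor 1 was the highest of its group and WT tumor 6 the lowest of its group in both Igfn1 and the muscle markers, and WT tumors 2, 3 and 4 held the 3 highest WT values of both. D69A tumor 4 had more muscle marker RNA (154 CPM) than D69A tumors 2, 3 and 5, but the lowest Igfn1 of its group. D69A tumor 3 had 24.4 CPM of muscle markers and 576.3 CPM of Igfn1. Across the groups, Igfn1 did not overlap while the muscle markers did. The median of the summed muscle markers was 33.9 CPM in D69A tumors and 164.9 CPM in WT tumors. The part of muscle tissue in the level of Igfn1 was not tested.

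Of 17 other tested genes for FNDC3 and sarcomeric immunoglobulin proteins 2 rose and 3 fell (background 18.8% higher and 24.7% lower), with a median log2 fold change of -1.23. Obsl1, a relative of the muscle gene obscurin that is expressed in many tissues, rose 1.28-fold, and Palld, an actin-binding protein gene, fell 2.325-fold. Without D69A tumor 1 the number that fell was 5, and after removal of the 3 tumors highest in muscle markers 1 rose. Of 22 skeletal muscle markers 1 fell and 0 rose; 8 fell without D69A tumor 1, and 0 fell without D69A tumor 2, 3, 4 or 5 or WT tumor 3, 4 or 5.

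Fndc3c1 (chrX:106420041-106485401, - strand) had 42.8, 64.6, 55.1, 58.3 and 50.8 CPM in D69A tumors 1 to 5, against 22.1, 12.9, 13.6, 13.1 and 21.6 CPM in WT tumors 2 to 6. WT tumors 2 and 6 stood above the other 3 WT tumors. The means were 54.3 ± 8.16 CPM in D69A tumors and 16.7 ± 4.75 CPM in WT tumors (SD, n = 5 each), with a log2 fold change of 1.71 (SE 0.18). The autosomal relatives Fndc3a and Fndc3b, outside the naming rule and chosen after their values were seen, had log2 fold changes of -0.13 (SE 0.08, edgeR adjusted p = 0.203) and 0.10 (SE 0.11, edgeR adjusted p = 0.513). Both were more abundant than Fndc3c1 in CPM, at 68.6 and 86.4 CPM in D69A tumors and 74.96 and 80.8 CPM in WT tumors, a comparison that does not allow for gene length.

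Capn6, the other X-linked gene (chrX:143802231-143827414, - strand), had 4.17, 10.1, 7.63, 9.70 and 7.06 CPM in D69A tumors 1 to 5, against 3.31, 1.28, 1.43, 1.47 and 2.18 CPM in WT tumors 2 to 6. D69A tumor 1 and WT tumor 2 nearly met. The means were 7.74 ± 2.39 CPM in D69A tumors and 1.94 ± 0.841 CPM in WT tumors (SD, n = 5 each), with a log2 fold change of 1.998 (SE 0.32), or 2.29 at most when a tumor was left out. Of 8 other tested calpain genes 0 rose and 2 fell by edgeR, against 18.8% and 24.7% over all genes tested. The 2 that fell are close to that share. Capn1, which encodes the large subunit of calpain-1, averaged 38.6 ± 1.76 CPM in D69A tumors and 56.1 ± 7.22 CPM in WT tumors (SD, n = 5 each, fitted log2 change -0.54, SE 0.08). The number that fell was 4 without WT tumor 2 and 1 without D69A tumor 1, 3 or 4 or WT tumor 3, and also 1 when the 3 tumors highest in muscle markers were left out.

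Arnt2 (chr7:84246278-84410176, - strand) had 8.07, 10.8, 9.73, 10.7 and 11.3 CPM in D69A tumors 1 to 5, against 5.89, 3.77, 4.01, 2.52 and 4.28 CPM in WT tumors 2 to 6. D69A tumor 1 and WT tumor 2 again lay nearest to the other group. The means were 10.1 ± 1.28 CPM in D69A tumors and 4.09 ± 1.21 CPM in WT tumors (SD, n = 5 each), with a log2 fold change of 1.31 (SE 0.20). Of 24 other tested bHLH-PAS factors and partners 4 rose and 2 fell, with a median log2 fold change of 0.07. Hif1a and Epas1, which encode oxygen-regulated subunits that can pair with ARNT proteins, rose 1.39-fold and 1.42-fold, and the coactivator gene Ncoa2 rose 1.31-fold, while the related coactivator gene Ncoa3 fell 1.47-fold. The 4 that rose are close to the share of 18.8% over all genes. Arnt, the paralog, averaged 68.5 CPM in D69A tumors and 67.5 CPM in WT tumors (log2 fold change 0.02, SE 0.06, edgeR adjusted p = 0.811), outside the naming rule and chosen after its value was seen. The number of genes that fell was 6 without WT tumor 2, 4 without D69A tumor 1 and 1 when the 3 tumors highest in muscle markers were left out.

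Dlk2 (chr17:46297421-46303271, + strand) had 3.31, 5.35, 5.68, 5.53 and 6.81 CPM in D69A tumors 1 to 5, against 2.74, 2.24, 2.02, 1.93 and 2.37 CPM in WT tumors 2 to 6. Its lowest D69A tumor, number 1, and its highest WT tumor, number 2, were closer than for any other of the 9 genes. The means were 5.34 ± 1.27 CPM in D69A tumors and 2.26 ± 0.32 CPM in WT tumors (SD, n = 5 each), with a log2 fold change of 1.24 (SE 0.20). Of 31 other tested genes of the Notch pathway 5 rose and 11 fell (background 18.8% higher and 24.7% lower), and their median log2 fold change was -0.07. Notch1 and Notch3, receptor genes, fell 2.43-fold and 1.71-fold, and Lfng, a sugar transferase that modifies Notch receptors, fell 4.76-fold. Adam10, the protease that cuts ligand-bound Notch, rose 1.32-fold, a gene outside the naming rule and chosen after its value was seen. Dlk1, the closest relative, averaged 0.8785 CPM in D69A tumors and 0.859 CPM in WT tumors (edgeR adjusted p = 0.96), likewise chosen after its value was seen. The number that rose was 3 without D69A tumor 5 and 2 after removal of the 3 tumors highest in muscle markers.

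The 9 genes were also set against the melanocyte gene Mlana, whose product is the melanoma antigen MART-1. Mlana itself had 841.9, 772.2, 833.2, 880.0 and 854.7 CPM in D69A tumors 1 to 5, against 877.1, 628.6, 886.0, 538.7 and 692.8 CPM in WT tumors 2 to 6. The groups overlapped, and the log2 fold change of 0.21 (SE 0.13) did not pass the threshold (edgeR adjusted p = 0.21). Per 1000 units of Mlana, Igfn1 stood at 598.4 ± 131.6 in D69A tumors and 141.8 ± 36.4 in WT tumors (SD, n = 5 each), a 4.22-fold difference of the means. Mov10l1 differed 20.4-fold on this scale, Syce1 4.12-fold, Capn6 3.49-fold, Syt4 3.14-fold, Fndc3c1 2.8-fold, Arnt2 2.16-fold, Dlk2 2.0-fold and Nptxr 1.63-fold. No gene's groups overlapped relative to Mlana. The genes were picked for separate groups in these same tumors, so this is a description and not a test.

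Other melanocyte genes moved more than Mlana. Of 15 melanocyte markers 11 rose and 0 fell (background 18.8% higher and 24.7% lower). Their summed level was 26850 to 34890 CPM in D69A tumors and 18280 to 22650 CPM in WT tumors. Without D69A tumor 1, 1 marker fell. Tyr, the tyrosinase gene, outside the naming rule and chosen after its value was seen, had the largest rise of the 15, 2.54-fold. It averaged 285.8 ± 80.98 CPM in D69A tumors, against 112.4 ± 33.7 CPM in WT tumors (SD, n = 5 each). The other called markers rose 1.19-fold to 1.81-fold. Mitf, Sox10 and Cdh1, likewise chosen after their values were seen, were not called, and the fitted change of Cdh1 was a decrease. Relative to the summed markers the 9 genes kept their direction with smaller differences, from 1.33-fold for Nptxr and 1.62-fold for Dlk2 to 3.37-fold for Igfn1 and 16.4-fold for Mov10l1. In bulk tumors, more melanoma cells and more RNA of a gene per melanoma cell cannot be told apart, and the part of the melanocyte content in the differences was not tested.

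**Figure D3:**
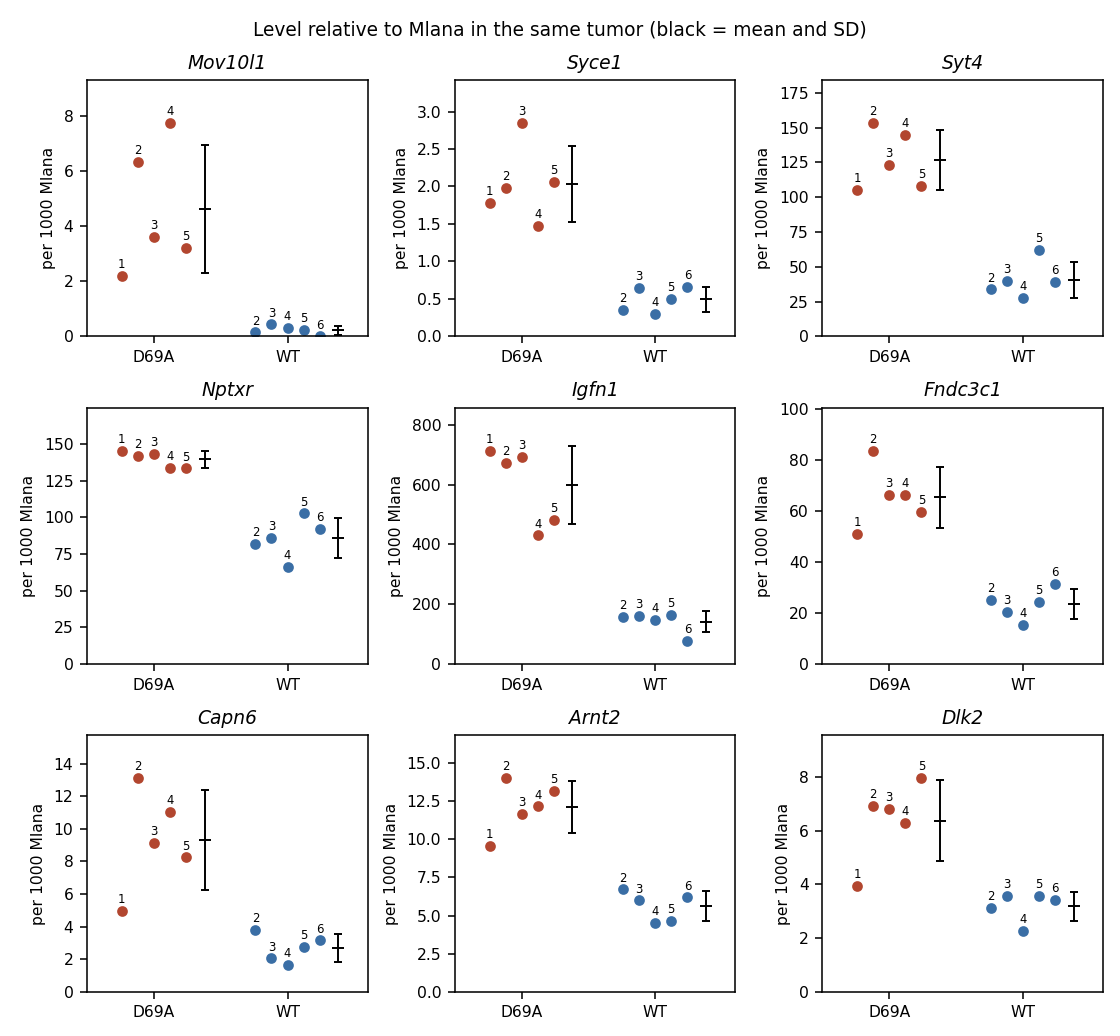
Level of each of the 9 genes per 1000 units of Mlana in the same tumor (linear axis from 0), D69A tumors on the left and WT tumors on the right; each point is 1 tumor with its number, and the black mark is the mean with its SD (n = 5). The groups do not overlap for any gene, and WT tumor 6 stands below the other WT tumors for Igfn1, at 77.7.

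Ptprc, which encodes the leukocyte phosphatase CD45, ran the other way. It had 52.1, 29.3, 18.1, 24.4 and 22.6 CPM in D69A tumors 1 to 5, against 66.6, 205.1, 125.0, 184.6 and 105.5 CPM in WT tumors 2 to 6, a log2 fold change of -2.23 (SE 0.35, edgeR adjusted p = 0.00096). All 15 leukocyte markers fell, and in these bulk samples fewer leukocytes and less RNA per leukocyte cannot be told apart. The 2 groups form separate clusters of 5 tumors, so no correlation between Ptprc and the 9 genes was computed, and how far leukocyte content enters their levels was not tested.

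Within the groups, the order of the tumors was compared with that of Ptprc. WT tumor 2 had the least Ptprc of its group and the highest level of 6 of the 9 genes, namely Nptxr, Igfn1, Fndc3c1, Capn6, Arnt2 and Dlk2. For Nptxr and Fndc3c1 all 5 WT tumors stood in the reverse order of Ptprc, that is tumors 2, 6, 4, 5 and 3 from high to low. The other 7 genes did not follow that full order, and Syt4 was highest in WT tumor 5, which had the second highest Ptprc of its group. D69A tumor 1 had the most Ptprc of its group and the lowest level of 6 genes, namely Mov10l1, Syt4, Fndc3c1, Capn6, Arnt2 and Dlk2, but the highest level of Nptxr and Igfn1. D69A tumor 3 had the least Ptprc of its group and was the highest for 1 of the 9 genes, Syce1. D69A tumor 1 was also the highest of its group in summed muscle markers, at 710.4 CPM. The part of leukocyte or muscle content in this order was not tested.

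D69A tumor 1 and WT tumor 2 are the pair of opposite groups nearest in Ptprc, at 52.1 and 66.6 CPM, and nearly equal in Mlana, at 841.9 and 877.1 CPM. Between these tumors, a single one on each side and chosen after the values were seen, Mov10l1 differed 14.3-fold, Syce1 4.83-fold, Igfn1 4.38-fold and Syt4 2.995-fold. The ratios of Mov10l1 and Syce1 rest on few reads, 5 and 12 in WT tumor 2 against 69 and 56 in D69A tumor 1. Fndc3c1 differed 1.94-fold and Nptxr 1.71-fold. Arnt2, Capn6 and Dlk2 differed by 1.37, 1.26 and 1.21-fold. For Syce1 the difference in this pair was close to the 4.95-fold between the group means, whereas for Capn6 it was 1.26-fold against 3.998-fold between the means. The pair was not alike in other content. Summed muscle markers were 710.4 CPM in D69A tumor 1 and 164.9 CPM in WT tumor 2. Summed melanocyte markers were 26850 CPM in D69A tumor 1 and 22650 CPM in WT tumor 2. The part of either in these ratios was not tested. No replicate stands behind the pair, so the ratios carry no error.

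**Figure D4:**
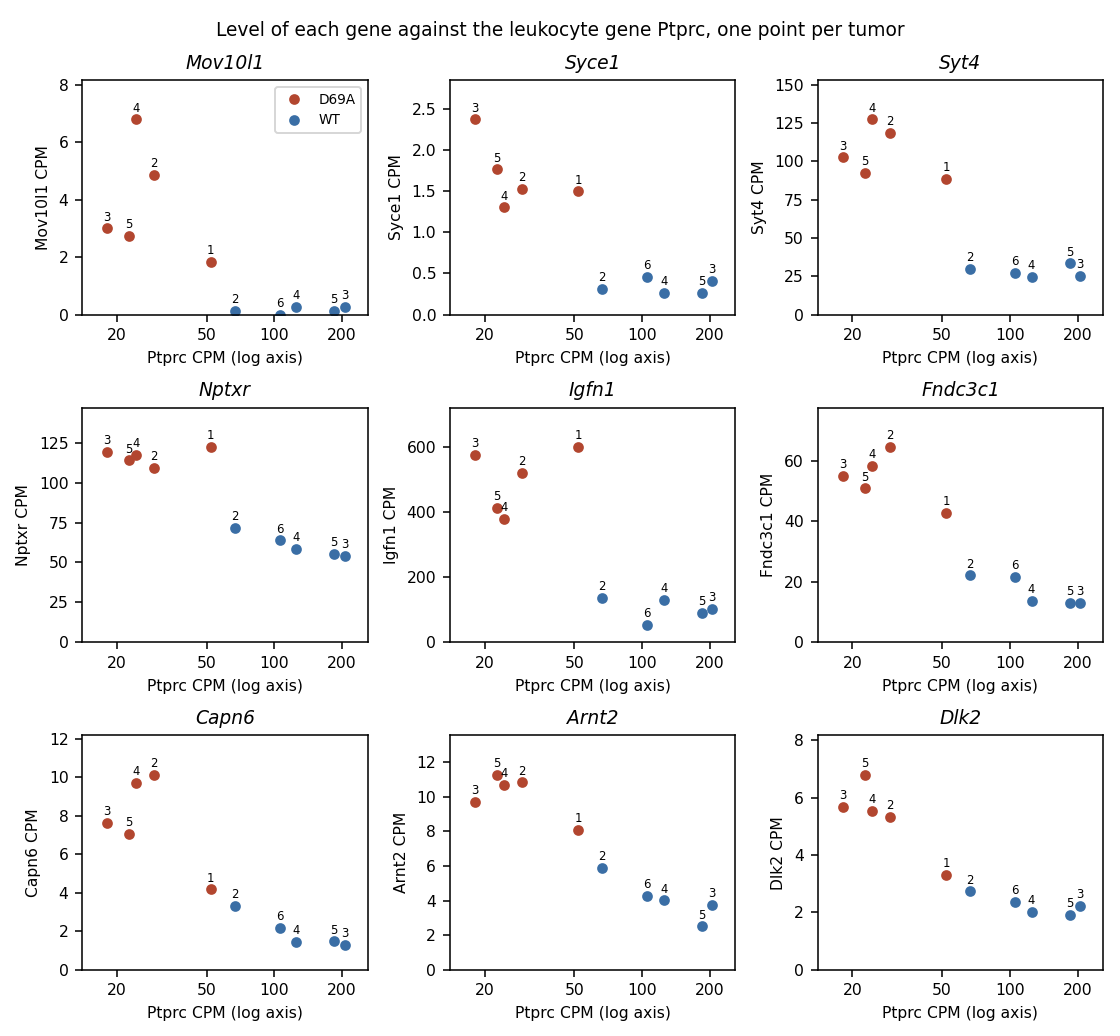
Level of each of the 9 genes in CPM (vertical, linear axis) against Ptprc in CPM (horizontal, log axis), 1 point per tumor with its number, D69A in red and WT in blue. Mov10l1, Syce1, Syt4 and Igfn1 step between D69A tumor 1 (52.1 CPM of Ptprc) and WT tumor 2 (66.6 CPM), while Capn6, Arnt2 and Dlk2 lie close together in these tumors.

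Genes next to the 9 on the chromosome were compared in the same fit, since they were not used in the choice. Of the 18 nearest tested neighbors, on either side of each gene, 8 rose, 3 fell and 7 did not pass the threshold. Over all genes tested 18.8% rose and 24.7% fell. The median log2 fold change of the neighbors was 0.24, against 0.00 over all genes. Every neighbor had a smaller log2 fold change than the gene it flanks, an order largely set by the choice of the 9 genes for their rise. The largest rise was that of Gm2115, 118.8 kb from Arnt2, with a log2 fold change of 0.66 (SE 0.22, edgeR adjusted p = 0.0331), a call lost without D69A tumor 2, 3 or 5 or WT tumor 2, 3 or 4 (edgeR adjusted p = 0.0502 to 0.0683). Abhd17c, on the other side of Arnt2, rose 1.3-fold and lost its call without D69A tumor 2 (edgeR adjusted p = 0.0556), without WT tumor 3 (0.0581), with library sizes alone and no TMM factors (0.0648) and when the 3 tumors highest in muscle markers were left out (0.188). Tmem9, a lysosomal membrane protein gene 1.81 kb from Igfn1, rose to 216.3 ± 12.6 CPM in D69A tumors, against 145.2 ± 17.4 CPM in WT tumors (SD, n = 5 each; fitted log2 change 0.58, SE 0.08, edgeR adjusted p = 0.000725). Without the 3 tumors highest in muscle markers 5 neighbors rose, with Pim3 (edgeR adjusted p = 0.0532) and Cbx6 (0.0789) no longer called.

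Around Mov10l1 and Syce1, the neighbors showed no comparable rise. Pim3, a kinase gene 117.2 kb from Mov10l1, rose 1.19-fold, and Trabd, 19.97 kb away on the other side, had a log2 fold change of -0.06 (SE 0.05, edgeR adjusted p = 0.368). Cyp2e1, a cytochrome P450 gene whose end lies 2.24 kb from Syce1, averaged 0.152 ± 0.16 CPM in D69A tumors and 1.93 ± 1.88 CPM in WT tumors (SD, n = 5 each), a log2 fold change of -3.64 (SE 1.17, edgeR adjusted p = 0.0271). That call was lost without D69A tumor 2 or 3 or WT tumor 3 or 5 (edgeR adjusted p = 0.0543 to 0.062) and after removal of the 3 tumors highest in muscle markers (0.145). Cysltr1, a leukotriene receptor gene of leukocytes, lies 88.9 kb from Fndc3c1 and fell 2.59-fold. Pak3, 4.435 kb from Capn6, had a log2 fold change of -0.33 (SE 0.35, edgeR adjusted p = 0.464).

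**Figure D5:**
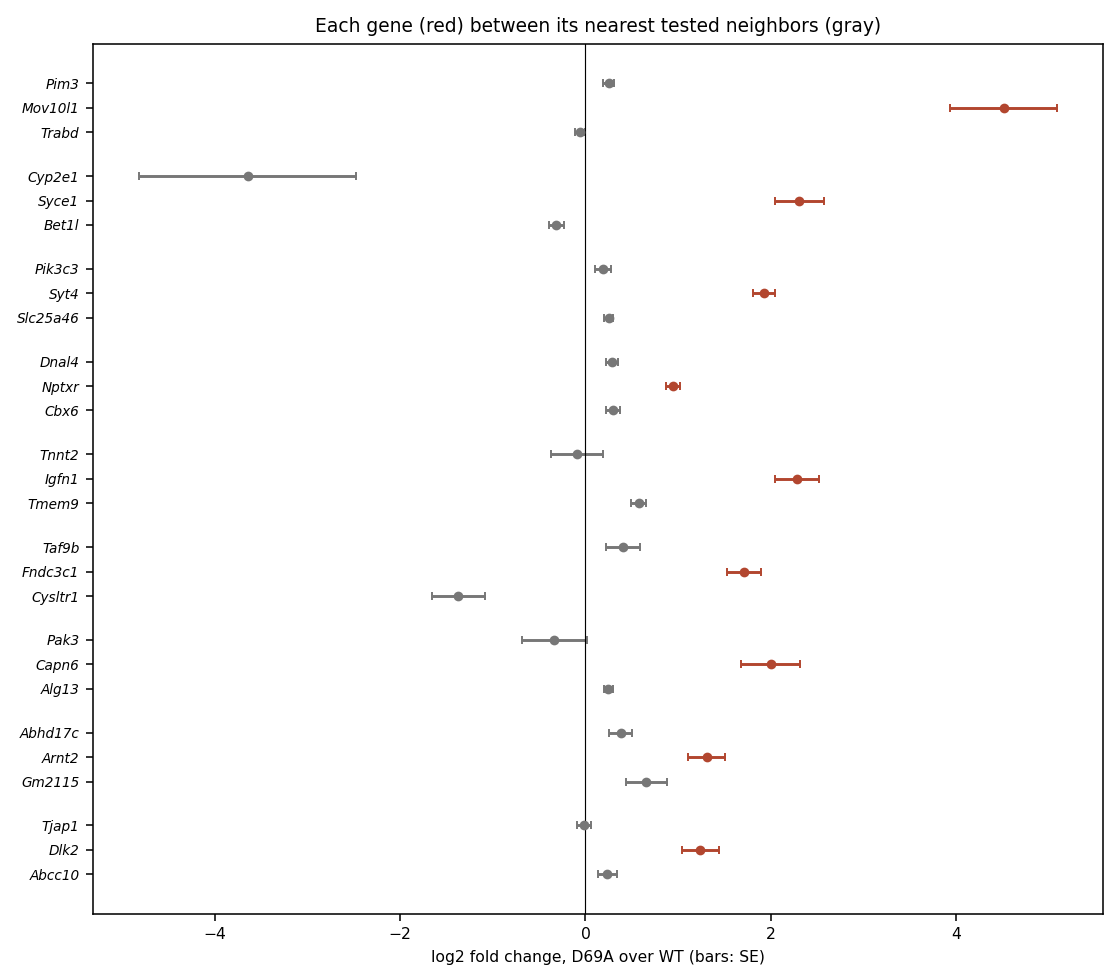
Log2 fold change of D69A over WT (horizontal axis, bars are SE) for each of the 9 genes in red and its nearest tested neighbor on each side in gray, 5 tumors per group. Each red point lies to the right of both of its neighbors, whose rises reach 0.66 at most. The 9 genes were picked for their rise, so this order is not a test.

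By profile over the 10 tumors, the genes most like the mean of the 9, each first brought to mean 0 and SD 1, were Ubr1, Tpp1, Spg7, Tmem63b and Slc38a10, out of 12631 genes with a mean of at least 1 CPM. Pearson's r with the mean profile was 0.99 for the first 4 and 0.985 for Slc38a10, given as a measure of likeness with no p, since the groups form separate clusters and these r values rest largely on the difference between them. Their changes were far smaller than those of the 9 genes, with log2 fold changes from 0.28 (SE 0.04) for Spg7 to 0.46 (SE 0.05) for Ubr1. Ubr1 averaged 50.3 ± 3.06 CPM in D69A tumors and 36.6 ± 1.2 CPM in WT tumors (SD, n = 5 each).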

How the data were processed

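The authors deposited 1 table of whole-number read counts, with genes as Ensembl identifiers and a column for each tumor. The submitters' processing notes name fastp, HISAT, Bowtie, RSEM and mm10, while roles, versions, annotation and strand setting are not stated there. Because RSEM estimates counts, the values may be rounded and reads of near-identical genes may be split. Symbols and coordinates from GENCODE mouse release 21 matched 17670 of 17737 identifiers. Each column was matched to a tumor by name. Tumors of the same group all differed beyond counting noise (smallest chi-square per degree of freedom 13.9).

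Low counts were removed with filterByExpr by group, leaving 13798 genes, and D69A over WT was fitted in edgeR (quasi-likelihood test, version 4.0.16, R 4.3.3, TMM, Benjamini-Hochberg adjustment, threshold 0.05), checked on simulated counts. SEs were derived from the F statistic. The counting floor (3 counts of the total) covers counting error only.

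The 9 genes and 15 gene lists were chosen with earlier results of these data known. The genes named are the 9, Mlana, Ptprc, Il18, the nearest tested gene on each side, up to 4 genes of each list with the smallest p, the 5 most similar profiles and the 5 largest other increases with a mean of at least 1 CPM. Others are marked where named, and Sycp1, Sycp3, Nptx1, Rbfox3 and Syp were also chosen after their values were seen. Alternatives were DESeq2 (1.42.0), RLE scaling, library size only, no low count filter, the replicate number as a block, each tumor left out, levels relative to Mlana or to the melanocyte markers and, added after seeing the data, removal of the 3 tumors highest in muscle markers. A gene that the naming rule covers is not reported here.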

Additional observations from a re-analysis of the deposited data

Results flagged for a closer look

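Within each group of 5 tumors, the highest and the lowest tumor were examined for a gap to their nearest neighbor larger than 0.71 of the range. This was done for 78 sets of values, of which 2 (2.56%) passed, where chance gives about 1 in 20. Relative to Mlana, Igfn1 was low in WT tumor 6, at 77.7 per 1000 units of Mlana, against 148.0 to 165.3 in the other 4 WT tumors. WT tumor 6 also had the lowest total count. Alg13, the neighbor of Capn6 on the side of higher coordinates, was high in WT tumor 4, at 31.6 CPM, against a WT mean of 29.8 ± 1.02 CPM (SD, n = 5).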

How the results depend on the processing

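All 9 genes stayed higher in D69A tumors under every alternative run, with the ranges given for leaving out each tumor: 4.22 to 4.78 for Mov10l1, 2.20 to 2.42 for Syce1, 1.86 to 2.03 for Syt4, 0.91 to 1.01 for Nptxr, 2.12 to 2.41 for Igfn1, 1.64 to 1.83 for Fndc3c1, 1.88 to 2.29 for Capn6, 1.2 to 1.48 for Arnt2 and 1.14 to 1.38 for Dlk2 (log2 fold change). The 9 genes were picked for this direction, so its persistence is a description and not a test. Mlana stayed uncalled and Ptprc stayed called. Leaving out the 3 tumors highest in muscle markers, chosen after seeing the data, gave 1727 genes higher against 2594, 1 piRNA pathway gene higher, 1 calpain lower, 1 bHLH-PAS gene lower, 2 Notch genes higher, 1 FNDC3 or sarcomeric gene higher, 3 neuronal markers lower, 0 germ cell markers lower and 5 neighbors higher. With library size only, 4 calpains were lower and 3 Notch genes higher. With DESeq2, 2 neuronal markers were higher and 2 skeletal muscle markers lower. The replicate numbers 2 to 5 are shared by both groups, and the deviations of same-numbered tumors correlated at 0.177, -0.417, 0.203 and 0.167. Numbers 2 and 4 had their own number as best partner and numbers 3 and 5 did not. Since number 3 correlated negatively, the numbers were not taken to pair the tumors. With the replicate number as a block, 1 calpain, 12 FNDC3 or sarcomeric genes, 20 skeletal muscle markers and 0 germ cell markers were lower. Leaving out single tumors gave 2095 to 2936 genes higher and 2826 to 3631 lower. By list it gave 0 to 1 pentraxin and AMPA genes higher, 1 to 4 calpains lower, 2 to 6 bHLH-PAS genes lower, 3 to 5 Notch genes higher, 0 to 1 testis genes higher, 3 to 5 FNDC3 or sarcomeric genes lower, 1 to 2 neuronal markers higher and 4 to 8 lower, 3 to 5 Schwann cell markers higher and 5 to 9 lower, 0 to 1 melanocyte markers lower, 0 to 8 skeletal muscle markers lower and 0 to 1 germ cell markers lower. The cause of these shifts was not tested. Depth limits Mov10l1 and Syce1 in WT tumors, with at most 10 and 15 reads per tumor.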

Other observations

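The 5 largest called increases outside the 9 genes, with a mean of at least 1 CPM, were Gzmg, 4930550L24Rik, Pla2g5, 1810065E05Rik and Gm43951. Pla2g5, a secreted phospholipase gene, averaged 1.88 CPM in D69A tumors and 0.366 CPM in WT tumors (log2 fold change 2.35, SE 0.39, edgeR adjusted p = 0.00116), and 4930550L24Rik 3.3 CPM in D69A tumors and 0.577 CPM in WT tumors. The granzyme gene Gzmg had the largest log2 fold change of these, 3.75 (SE 1.39, edgeR adjusted p = 0.048). It was no longer called when D69A tumor 2 or 4 or any single WT tumor was left out, with an adjusted p of up to 0.211 and a log2 fold change of 2.05 without D69A tumor 2. The call was also lost with DESeq2 (adjusted p = 0.05995), with library size only (0.0537), with no low count filter (0.05355) and after removal of the 3 tumors highest in muscle markers (0.067).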
